A study of Drosophila melanogaster with 4 samples.

Results

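The regions described here are the pericentromeric ends of 3 arms of the fruit fly genome (Drosophila melanogaster) and 4 of its heterochromatic scaffolds, with the H3K36me1 clusters found in them. By the rule, the ends run from 2L:20000001, 3L:21500001 and X:19400001 to the end of each arm, and the scaffolds 2LHet, 3LHet, 3RHet and XHet were taken whole. Cut into consecutive windows of 10 kb, they gave 1476 of the 12972 windows of the 6 arms and 6 mapped scaffolds, with 910 windows in the ends and 566 on the scaffolds. The borders are fixed positions and were not set by a heterochromatin mark. All coordinates are those of FlyBase release 5.

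The chromatin came from heads of wild-type Oregon-R flies (Oregon-R-modENCODE), labelled as mixed adults and raised in population cages. There were 2 H3K36me1 ChIP-seq samples and 2 inputs, which are chromatin sequenced without antibody selection and served the ChIP replicate of the same number. Whole heads hold many cell types, and a cluster list cannot tell a mark in few cells from a weak mark in many. Enriched regions, called clusters here, were deposited as a list for each ChIP replicate and as a combined list for the set of replicates. Replicate 1 listed 5477 clusters and replicate 2 listed 5412, while the combined list had 7567.

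H3K36me1 is the monomethylated form of lysine 36 in the tail of histone H3. Methylation of this lysine is laid down by SET-domain enzymes, in flies Set2, Ash1 and NSD, and its higher forms are known from the bodies of transcribed genes. Pericentromeric heterochromatin is packaged with methylated lysine 9 of histone H3 and the protein HP1a, is rich in satellites and transposable elements, and holds few genes, some of which are nevertheless transcribed. The release 5 arms end inside this chromatin, and the Het scaffolds are assembled pieces of it that lie further towards the centromeres.

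The ends carried fewer H3K36me1 clusters than the rest of their arms, and the scaffolds carried almost none. Clusters covered 14.0% ± 0.0879 of the 3 ends together, against 26.7% ± 0.740 of the rest of 2L, 3L and X (SD, n = 2). The 4 scaffolds together were covered to 0.574% ± 0.0803 (SD, n = 2). Both replicates placed the ends below the rest of their arms, by 13.2 percentage points in replicate 1 and 12.3 in replicate 2, with groups that did not overlap. As a ratio of ends to rest, the replicates gave 0.515 and 0.531, and the combined list gave 0.541. With a single group of 2 ChIP replicates no test between regions over samples can be made, so each difference is set against the spread between the replicates. The labels do not say whether the replicates came from separate collections, so that spread may be technical. Read depth is unknown, and a window outside a list fell short of the authors' threshold, which does not show that the mark is absent there. The percentages use full sequence lengths. How much of each region short reads can be placed in was not tested.

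Among the ends, 3L was the most covered and X the least. The 3L end was covered to 16.8% in replicate 1 and 16.5% in replicate 2, against 28.2% and 27.5% of the rest of 3L. The 2L end was covered to 14.1% and 14.6%, against 25.7% and 24.5% of the rest of 2L. The X end was covered to 11.3% and 10.6%, against 27.7% and 26.6% of the rest of X. The order 3L, 2L, X held in both replicates, and the distance between neighbours in it exceeded the difference between the replicates. In the combined list the 2L end (21.2%) and the 3L end (21.1%) were nearly level, with the X end at 17.1%. The ratio of end to rest was 0.403 ± 0.00512 on X, below 0.571 ± 0.0350 on 2L and 0.598 ± 0.00572 on 3L (SD, n = 2 each).

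On the scaffolds, clusters lay on 3LHet and 3RHet. The 3LHet scaffold (2.56 Mb) was covered to 0.915% in replicate 1 and 1.23% in replicate 2, by 10 and 11 clusters. The 3RHet scaffold (2.52 Mb) was covered to 0.232% and 0.168%, by 3 and 2 clusters. Neither replicate listed a cluster on 2LHet (369 kb) or XHet (204 kb), where the combined list held 2 clusters and 1 cluster. Each of these clusters was narrower than any that the replicates listed. These scaffolds are short, with 37 and 21 windows.

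**Figure D1:**
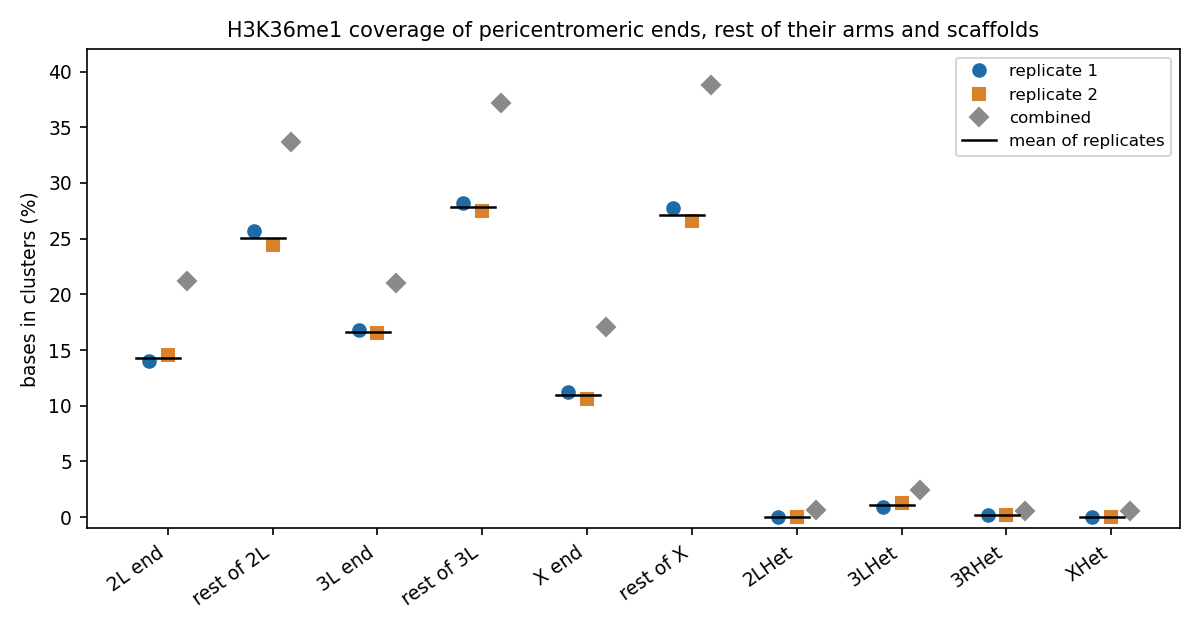
Share of bases inside H3K36me1 clusters (%, vertical axis) for each end beside the rest of its arm, and for each scaffold. Points are the replicates and the combined list, and bars are replicate means. Each end lies below the rest of its arm in all 3 lists, and the scaffolds lie at 2.44% or less.

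Counted as windows, 239 of the 910 end windows held at least 1 clustered base in replicate 1 and 247 did in replicate 2, which is 26.3% and 27.1%. Over all 12972 windows of the mapped genome the same count gave 43.0% in replicate 1 and 42.5% in replicate 2. Both replicates had a cluster in 216 end windows (23.7%), against 38.4% of all windows. In the combined list 340 end windows (37.4%) held a cluster, against 55.6% of all windows. The ends were thus below the background in each list, and the scaffolds further below, with 12 windows of 566 in replicate 1, 9 in replicate 2, 7 in both and 27 in the combined list. No list had a cluster in 62.5% of end windows, against 35.6% of windows in the rest of the same arms, and in 95.2% of scaffold windows.

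Windows of the ends in which both replicates had a cluster were filled about as far as elsewhere when the arms were pooled, but the arms went both ways. The median covered share of windows with a cluster in both replicates was 55.3% in the ends and 55.6% in the rest of the arms. In the 3L end this median was 70.0%, against 56.2% in the rest of 3L. It was lower in the 2L end, at 47.6% against 54.9% in the rest of 2L, and in the X end, at 48.0% against 55.4% in the rest of X. Of the 910 end windows, 105 (11.5%) were over 50% covered in both replicates, against 1372 of 6090 (22.5%) in the rest of the arms. Both replicates fully covered 31 of the 910 end windows, against 359 of the 6090 windows in the rest. Of the 31, 18 lay in the 3L end, 9 in the 2L end and 4 in the X end. The replicates' covered shares correlated over the 910 end windows with a Pearson r of 0.964, against 0.955 over the 6090 windows in the rest of the arms. Neighbouring windows share clusters and libraries, so these values are descriptions.

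Cluster width and score in the ends were close to those in the rest of the arms. The median width was 2827 bases in the ends in replicate 1 and 2619 bases in replicate 2, against 2677 and 2633 bases in the rest. Scores are the authors' values per cluster, without a stated unit, and are compared within a list only. The median score was 0.725 in the ends and 0.727 in the rest in replicate 1, and 0.659 in the ends and 0.671 in the rest in replicate 2. By arm, the X end had a median of 0.844 against 0.846 for the rest of X in replicate 1, and 0.763 against 0.774 in replicate 2. The 2L end had 0.617 against 0.651 for the rest of 2L in replicate 1, and 0.594 against 0.611 in replicate 2. The 3L end lay slightly above its rest, with 0.662 against 0.656 in replicate 1 and 0.628 against 0.618 in replicate 2. Clusters of at least 20 kb numbered 14 in the ends in replicate 1 and 11 in replicate 2, and 8 and 5 of these lay in the 3L end. They held 53.6% and 38.9% of the covered bases there, against 31.9% and 31.8% in the rest of 3L. Their share was lower in the 2L end, at 26.3% and 24.6% against 31.4% and 30.3% in the rest of 2L. In the X end it was 17.4% and 21.3%, against 20.9% and 22.8% in the rest of X.

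Lower coverage in the ends went with long stretches that held no cluster. Of the 90 full blocks of 100 kb in the ends, 32 (35.6%) had no cluster in either replicate, against 28 of 609 (4.60%) in the rest of the arms. The counts were 10 of 30 in the 2L end, 11 of 30 in the 3L end and 11 of 30 in the X end. Blocks covered to at least 50% in both replicates numbered 8 of 90 (8.89%) in the ends and 95 of 609 (15.6%) in the rest. Stretches of at least 50 kb without a cluster in either replicate made up 53.3% of the 2L end, 72.0% of the 3L end and 71.9% of the X end, against 41.3% of the rest of 2L, 31.1% of the rest of 3L and 26.8% of the rest of X.

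Coverage was lower inside than outside each of the rule's borders over 100 kb and 500 kb, while single windows at the borders went both ways. On 2L the window just inside the border, 2L:20000001-20010000, was covered to 61.0% in replicate 1 and 57.0% in replicate 2, and the window just outside to 88.9% and 86.9%. On 3L the window just inside was covered to 24.4% and 28.3%, and the window just outside to 0% in both replicates. On X the window just inside was covered to 19.1% and 42.9%, and the window just outside to 78.2% and 83.4%. Over 100 kb on each side, coverage was 22.0% inside and 47.8% outside on 2L, 4.10% inside and 19.1% outside on 3L, and 3.10% inside and 67.7% outside on X, as replicate means. Over 500 kb on each side, coverage was 13.1% inside and 27.7% outside on 2L, 18.9% inside and 36.4% outside on 3L, and 16.6% inside and 29.6% outside on X, as replicate means. The next 500 kb inward exceeded the 500 kb outside on 2L (34.3%) and 3L (49.2%) and stayed below it on X (7.80%).

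To find where coverage ended, the edge of an arm was taken in each list as the end of the last block of 100 kb, towards the centromere, that was covered to at least 10%. On 3L both replicates put the edge at 23.0 Mb, 1544 kb before the end of the arm. On X both put it at 22.3 Mb, 123 kb before the end. On 2L the edge lay at 22.0 Mb in replicate 1 and 22.1 Mb in replicate 2, which left 1012 kb and 912 kb. The edges of X and 2L depended on the settings. With a minimum of 20% the edge of X lay at 21.2 Mb, and with blocks of 200 kb at a mean of 21.7 Mb. The edge of 2L lay at a mean of 21.3 Mb with a minimum of 20%, and at 21.55 Mb with clusters at or above the median score. The edge of 3L stayed at 23.0 Mb under both of these and moved to 23.3 Mb with a minimum of 5% and in the combined list.

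**Figure D2:**
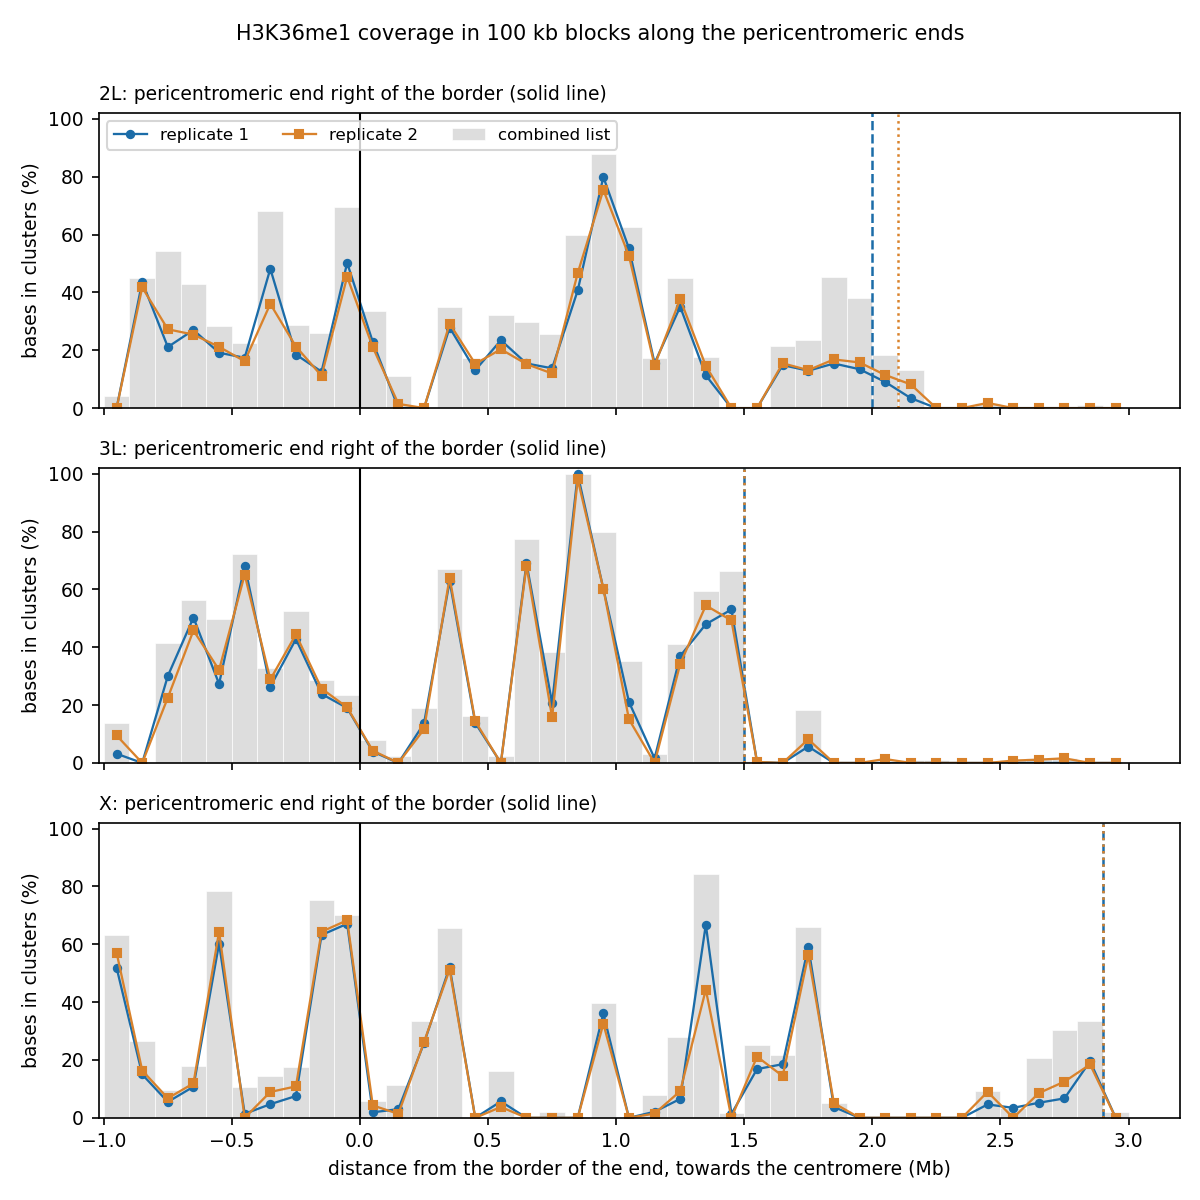
Share of bases inside H3K36me1 clusters in blocks of 100 kb (%, vertical axis) against distance from the border of each end (Mb, horizontal axis), from 1 Mb outside the border to the end of the arm. Lines are the replicates, bars the combined list, the solid vertical line the border, and the dashed (replicate 1) and dotted (replicate 2) lines the edges. Coverage alternates between covered and empty blocks. In the replicates it stops in a step on 3L, while the combined list covers a later block, 3L:23200001-23300000, to 18.3%. On 2L it returns at a lower level after an empty stretch and then stops, and on X it returns after a longer empty stretch.

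Arm 3L stopped in a step in both replicates. Up to its edge the 3L end was covered to 33.6% in replicate 1 and 32.6% in replicate 2, above the 28.2% and 27.5% of the rest of the arm, although the edge was chosen on this coverage. Up to their edges the 2L end (20.5% and 20.4%) and the X end (11.7% and 11.0%) stayed below the rest of their arms. Block 3L:22300001-22400000 was covered to 99.7% and 98.0% and was the fullest of the 3 ends. The edge block, 3L:22900001-23000000, was covered to 53.0% and 49.3%, and the next block to 0.292% and 0.343%. The last cluster before the step ended at 3L:23000292 in replicate 1 and at 3L:23000343 in replicate 2, a difference of 51 bases. Beyond it, 199.8 kb were free of clusters in both replicates. From the edge to the end of the arm 0.387% of bases in replicate 1 and 0.871% in replicate 2 lay in clusters. In the combined list coverage came back past this gap, to 18.3% in block 3L:23200001-23300000.

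The dense part of the 3L end held its widest shared stretches. The widest, 3L:22340728-22400959, measured 60.2 kb, and its parent clusters had scores of 1.49 and 1.37 in the replicates. Next in width was 3L:22129588-22171008 (41.4 kb), with scores of 1.15 and 1.02. At 3L:21873571-21908703 a stretch of 35.1 kb belonged to the highest-scoring cluster of all the ends, at 1.75 in replicate 1 and 1.67 in replicate 2, at the 99.9th percentile of each list. These dense stretches alternated with gaps, of which 3L:21916449-22124318 (207.9 kb) was the longest before the edge.

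Arm 2L tapered when averaged in bins of 500 kb, although a long cluster-free gap lay within the decline. In bins of 500 kb towards the centromere, mean coverage of the replicates was 13.1%, 34.3%, 23.7%, 11.8%, 3.39% and 0%. The peak lay at 2L:20900001-21000000, covered to 79.9% in replicate 1 and 75.4% in replicate 2. The pair of widest shared stretches in the 2L end lay in or across its proximal side, 2L:20952105-20977574 (25.5 kb) and 2L:20980745-21021044 (40.3 kb), and the wider scored 1.48 and 1.33. After a cluster-free stretch of 234.8 kb at 2L:21385081-21619856, coverage came back at a lower level. Over 2L:21600001-22200000, a stretch delimited after its values were seen, it was 11.5% and 13.5% in 24 and 25 clusters, of median width 2209 and 2471 bases. Its last block, past 22.1 Mb, was covered to 3.45% in replicate 1 and 8.19% in replicate 2. The next 2 blocks held no cluster in any of the 3 lists.

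The X end had neither pattern. Its clusters came in separate groups: 52.1% and 51.2% coverage in block X:19700001-19800000, 66.8% and 44.3% in X:20700001-20800000, and 59.1% and 56.2% in X:21100001-21200000. The last of these blocks held the widest shared stretch of the X end, X:21116488-21151943 (35.5 kb), with scores of 1.21 and 0.979. The middle block was that on which the replicates differed most among the 90 full blocks of the ends. The X end held 13 stretches of at least 50 kb without a cluster in either replicate. The longest, X:21251953-21878660, spanned 626.7 kb, against 334.8 kb for the longest such stretch in the rest of the 3 arms. Its combined coverage was 0.0183%, the overhang of clusters at its sides.

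Coverage on X returned after that gap, close to the end of the arm. Over X:21800001-22300000, also delimited after its values were seen, 7.91% of bases lay in clusters in replicate 1 and 9.70% in replicate 2, in 14 and 18 clusters. These were narrow, with medians of 2035 and 2003 bases and a widest cluster of 6661 and 6957 bases. Their median scores, 0.808 and 0.752, were close to those of the rest of X. The edge block X:22200001-22300000 was covered to 19.5% and 18.4%. In both replicates a further cluster followed, and it stopped 9.66 kb and 10.0 kb short of the end of the arm.

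The proximal stretches of 2L and X also differed in extent between the lists. Over 2L:21600001-22200000 the combined list covered 26.6%, which was 2.13 times the replicate mean, and over X:21800001-22300000 it covered 19.5%, or 2.21 times. Over 3L:22700001-23000000, just before the step, this ratio was 1.21, and over the rest of the 3 arms it was 1.37. Past the step, where few bases of 3L lay in clusters, the ratio was high as well. It was 2.62, 3.07 and 2.47 in the bins of 500 kb from 3L:23000001 to 3L:24500000. Bases in both replicates made up 55.0% of bases in either on the 2L stretch and 38.3% on the X stretch. On the 3L stretch before the step they made up 78.2%, against 76.2% in the rest of the 3 arms. Whether depth or cluster width bears on this difference was not tested.

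Beyond the edges, each replicate held few clusters: 4 on 2L, 2 on 3L and 1 on X in replicate 1, and 4, 7 and 1 in replicate 2. Each edge was set on coverage in the same list, so every full block beyond it fell below the edge minimum. That rule limits both the number and the width of clusters there, so neither is a separate finding. On 2L, 2 of the 4 in replicate 1 lay between the edges of the replicates. All 7 of replicate 1 touched a cluster of replicate 2, and 5 of the 12 of replicate 2 touched one of replicate 1. Under that limit they were narrow, from 1534 to 4660 bases in replicate 1 and from 1364 to 3597 bases in replicate 2. Their median scores, 0.569 and 0.541, lay at the 20.9th and 23.9th percentile of all clusters in their lists. The ends up to the edge had medians at the 55.2nd and 52.3rd percentile. None of the clusters beyond the edges reached 5 kb, and among clusters under 5 kb the ends up to the edge had medians at the percentiles 40.1 and 44.6. Both comparisons pool the arms, and only 1 cluster beyond the edges in each replicate lay on X. Over the whole ends, median percentiles were 71.2 and 69.0 on X, 42.4 and 44.8 on 3L and 31.8 and 37.1 on 2L. How far the mix of arms bears on the difference was not tested.

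Past the edge of both replicates, 5 stretches were shared. On 3L the longest ran from 3L:23200170 to 23203426 (3257 bases), in clusters that scored 0.569 in replicate 1 and 0.725 in replicate 2. It was followed by 3L:23218703-23219961 (1259 bases), with scores of 0.548 and 0.506. On 2L the shared stretches were 2L:22138344-22138691 (348 bases) and 2L:22151342-22152648 (1307 bases). On X it was X:22411504-22412781 (1278 bases), with scores of 0.643 and 0.705. On 3L the pair lay 199.8 kb and more past the step, and on X the cluster lay 150.6 kb past its nearest neighbour in either replicate.

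Further towards the centromere, clusters were found in replicate 2 and not in replicate 1. They lay at 2L:22439842-22441624 and, on 3L, at 3L:23251399-23252949, 3L:23572620-23573983, 3L:24099187-24101144 and 3L:24204640-24206251. The cluster at 3L:24099187 stood out by score: 1.46 at a width of 1958 bases, rank 2 among the replicate 2 clusters under 2 kb and at the 99.1st percentile of the list. It lay 525.2 kb from its neighbour on the telomeric side and 103.5 kb from that on the centromeric side. The combined list had a cluster at the same place, of 2840 bases and score 1.16. With replicate 1 left out, 3L thus reaches 337.3 kb from its end, and with replicate 2 left out it stops 1323 kb from it.

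**Figure D3:**
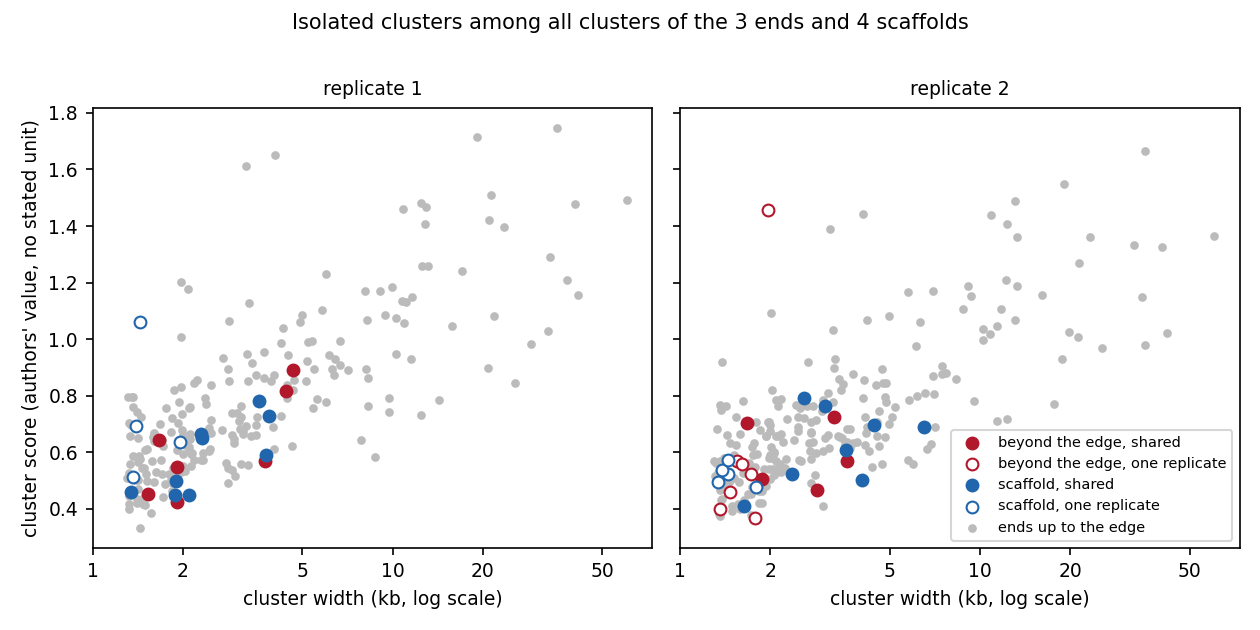
Score (the authors' value, vertical axis) against width (kb, log scale, horizontal axis) of clusters in each replicate. Red points lie beyond the edges and blue points on the scaffolds, filled where the other replicate shares a base. Grey points are the clusters of the ends up to the edge. The clusters of both kinds are at most 6530 bases wide, and 1 unshared cluster in each replicate scored above 1.0 at under 2 kb.

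On the scaffolds most of the signal was a group of clusters near the start of 3LHet, singled out after its values were seen. It held 7 clusters from 3LHet:199550 to 230897 in replicate 1, 11 clusters from 3LHet:199141 to 251151 in replicate 2 and 14 clusters from 3LHet:199223 to 259248 in the combined list. Clusters filled 59.6% and 60.4% of the span in the replicates, and 71.5% of that of the combined list. The group made up 79.9% of the covered bases of 3LHet in replicate 1 and 100% in replicate 2. The window 3LHet:200001-210000 was covered to 89.0% and 87.4%, while 92.97% of 3LHet windows held no cluster in any list.

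The replicates began the group within 409 bases of each other and differed in how far it ran. The first pair of clusters in each replicate reached 3LHet:207036 in replicate 1 and 3LHet:206715 in replicate 2, with scores of 0.782 and 0.730 in replicate 1, and 0.696 and 0.763 in replicate 2. The widest shared stretch was 3LHet:215721-219491 (3771 bases). Replicate 2 added 4 clusters past the last one of replicate 1, from 1383 to 1789 bases wide. Over the group 17.3 kb lay in both replicates and 32.8 kb in either, a share of 52.7%.

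**Figure D4:**
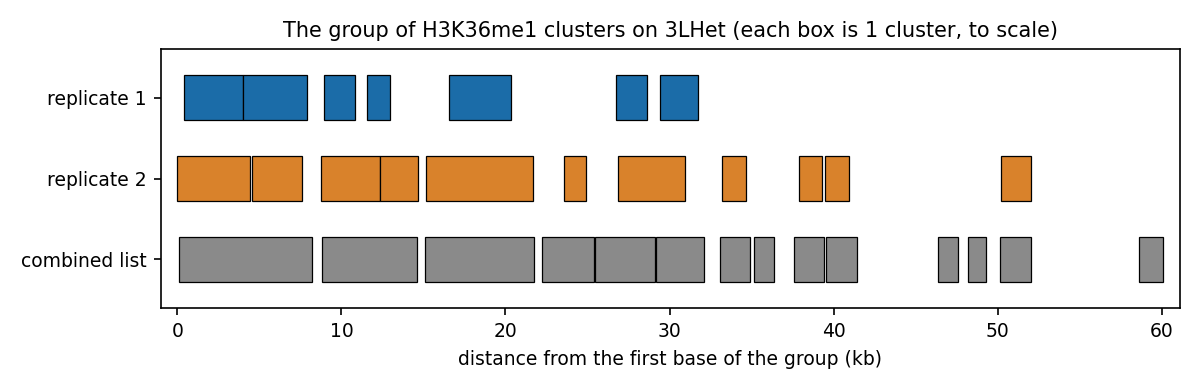
The group of clusters on 3LHet in each list, with boxes drawn to scale against the distance from its first base (kb, horizontal axis). Replicate 1 spans 31.3 kb and replicate 2 spans 52.0 kb, and the combined list spans 60.0 kb.

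Elsewhere on the scaffolds, 3RHet held a further pair of shared stretches, after which 133.7 kb without a cluster in either replicate led to its last base. The combined list held 2 clusters in that stretch. Of the shared pair, which lay before that stretch, the wider was 3RHet:2381327-2383630 (2304 bases), with scores of 0.666 in replicate 1 and 0.793 in replicate 2. The other, 3RHet:2376200-2376935 (736 bases), scored 0.448 and 0.411. The first 1973.8 kb of 3RHet held no cluster in either replicate and 2 in the combined list. Clusters of replicate 1 alone lay at 3LHet:180890-182284, 3LHet:1339054-1341009, 3LHet:2535858-2537218 and 3RHet:1973838-1975273. The last scored 1.06 at 1436 bases, rank 4 among the replicate 1 clusters under 2 kb.

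The combined list added clusters on the scaffolds that neither replicate had, 20 of its 36. The lists differed in their narrowest cluster, 1001 bases in the combined list against 1302 and 1301 bases in the replicates. The combined clusters on 2LHet (1234 and 1103 bases) and XHet (1072 bases) were narrower than any replicate cluster. In the rest of the 3 arms 34.8% of combined clusters touched neither replicate, and in the ends 39.1% did. On 2LHet its clusters lay at 2LHet:165521-166754 and 2LHet:241068-242170, with scores of 0.401 and 1.30, and on XHet at XHet:71792-72863 with a score of 0.444. The 2LHet cluster of score 1.30 measured 1103 bases and ranked 15 among the combined clusters under 2 kb. A cluster at X:22312329-22314177, just past the edge of X, scored 1.28 and ranked next, also without a partner in either replicate. On 3LHet the combined list further held 5 clusters between 3LHet:1190826 and 1263392, none of which touched a replicate cluster.

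In bases, the replicates overlapped less on the scaffolds and beyond the edges than in the ends, while by clusters the values beyond the edges went both ways. Of the end clusters, 176 of 226 in replicate 1 (77.9%, Wilson 95% interval 72.0 to 82.8) and 190 of 244 in replicate 2 (77.9%, 72.3 to 82.6) shared at least 1 base with the other replicate. In the rest of the arms this was 78.7% in replicate 1 and 83.9% in replicate 2. On the scaffolds 9 of 13 (69.2%, interval 42.4 to 87.3) and 8 of 13 (61.5%, interval 35.5 to 82.3) were shared. Of these 13 clusters, 7 in replicate 1 and 11 in replicate 2 lay in the group on 3LHet, so they are not independent counts. Beyond the edges 7 of 7 clusters of replicate 1 (interval 64.6 to 100) and 5 of 12 of replicate 2 (41.7%, interval 19.3 to 68.0) were shared. The intervals cover counting error over clusters only, treat clusters of 1 library as independent, and are no test between regions. In bases, 74.5% of what lay in either replicate lay in both in the ends, 45.6% on the scaffolds and 27.2% beyond the edges of both, against 76.2% in the rest of the arms. Among the ends the X end had the lowest value, 64.7%, against 72.8% in the rest of X.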

How the data were processed

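H3K36me1 ChIP-seq was done on chromatin of adult fly heads in 2 ChIP and 2 input samples, whose titles give group and replicate number. Heads were collected with sieves, and formaldehyde-treated chromatin was sonicated, per the labels' protocols. The submitters' processing notes name Bowtie 0.12.7 as the aligner. Positions are in FlyBase release 5, per the file headers. The authors deposited 3 cluster lists, each cluster with a score of the authors' own. Its definition, the caller and the threshold are not stated in the labels or headers. The lists hold no read counts, so depth is unknown.

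Covered shares, edges, overlaps and cluster-free stretches were computed with scipy 1.17.1, pandas 2.3.3 and numpy 2.4.6 in Python 3.11.15, and plotted with matplotlib 3.10.9. The code was tested on simulated lists. A cluster belongs to the region that holds its midpoint, and is shared if at least 1 base overlaps the other replicate. Unplaced sequence and the inputs entered no comparison. The regions, lists and alternatives were chosen with earlier results of these data known. Regions named are the edge blocks, border windows, fullest blocks or windows, widest shared stretches, longest gaps, and shared stretches beyond the edges or on scaffolds. Other named clusters were chosen after their values were seen. Genes are not named and no sequence is printed, because the annotation used here is of another assembly. Alternatives were score and width minimums, the combined list, leaving out each replicate, moved borders, window and block sizes, edge minimums, overlap rules and joining.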

Additional observations from a re-analysis of the deposited data

Results flagged for a closer look

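Outside the regions compared, the combined list held 6 clusters on the unplaced sequence U, where replicate 1 held 2 clusters and replicate 2 held 0. They drew attention as signal on a sequence that entered no comparison.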

How the results depend on the processing

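The direction, ends below the rest of their arms, held under each alternative run, with ratios of 0.512 (borders 500 kb towards the centromere), 0.541 (combined list) and 0.617 (borders 500 kb towards the telomere) outside the spread of the replicates. Coverage of the ends was 11.3% with clusters at or above the median score, 11.2% for a minimum width of 3 kb, 19.8% by the combined list, and 16.4% and 13.5% with borders 500 kb towards the telomere and the centromere. Coverage of the scaffolds under the first 3 of these was 0.226%, 0.291% and 1.42%. End windows with a cluster, 26.7%, made up 19.6%, 18.6% and 37.4% under the same 3 settings, 22.1% and 34.0% in windows of 5 and 20 kb, and 30.9% and 25.9% with the borders moved outward and inward. Scaffold windows with a cluster made up 0.707%, 0.707%, 4.77%, 1.33% and 2.64% under the first 5 of these. The edge of 2L, at a mean of 22.05 Mb, moved to 21.55 Mb (median score), 21.85 Mb (3 kb), 22.2 Mb (combined), 22.15 Mb (minimum 5%) and 21.3 Mb (minimum 20%). The edge of 3L moved to 23.3 Mb in the combined list and with a minimum of 5%, and to 23.25 Mb with blocks of 50 kb. That of X moved to 21.2 Mb (minimum 20%) and 21.7 Mb (blocks of 200 kb). Clusters beyond the edges or on a scaffold, the group on 3LHet included, were 22.5 per replicate and numbered 11.0, 9.50 and 44.0 under the first 3 settings. Clusters found in the other replicate made up 56.7% in the ends and 38.5% on the scaffolds with reciprocal overlap of 50%, 77.6% and 58.3% with the median score, and 76.3% and 57.8% after joining over gaps of up to 1 kb. Fewer or wider clusters set the direction of the filters by construction. Window size, the edge minimum and the reciprocal overlap rule likewise fixed the direction of the shifts given under them. For other shifts the cause was not tested. Leaving out either replicate kept coverage, ratio, windows, edges and the number of these clusters within the replicates' spread by construction, and cannot be done for agreement. No paired analysis was possible because only the ChIP samples, a single group, have cluster lists used here.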
